A study of Arabidopsis thaliana with 9 samples.

Results

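A set of genes had lower array signal in every sample of an RGA-GR transgenic line than in nontransgenic plants. Genes were measured by probe sets, and a probe set is a group of probes that measures 1 or more transcripts. A filter kept 17273 probe sets whose deposited ratio was above that array's 40th percentile on 3 or more of 9 arrays. It ranks ratios and does not measure signal level, and a member can pass it on the 3 nontransgenic arrays alone. Of these probe sets kept, 45 (0.261%) met the rule. The rule asked that the lowest of 3 nontransgenic arrays be at least 2.5 times the highest of 6 RGA-GR arrays. It also asked that the mean log2 ratios of dexamethasone-treated and mock-treated RGA-GR plants differ by less than 0.6. Of the 46 probe sets that met both conditions (0.266%), the anthocyanin gene UF3GT was set aside by name. The rule also left out OPCL1, COR15A, ZAT10, MGH3 and every symbol beginning with SBT or GSTU, and none of these met both conditions under such a symbol. Members that the gene table lists by locus number alone, AT4G21630 among them, could not be checked against those symbols. The members were thus chosen by the measured ratios of all 9 arrays in every contrast, so the values below only describe the members. Counts of members called by limma are given as description too, and are no test of the members. The members stand for 28 named genes and 17 probe sets with no gene name in the probe table used here.

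The 9 Affymetrix arrays were hybridised with total RNA of Arabidopsis thaliana inflorescences, with no flower older than stage 12. The ga1-3, rga and rgl2 alleles were present in every group. A first group carried the RGA-GR transgene and received a mock treatment for 4 h (RGA-GR mock), a further group carried it and received dexamethasone, Dex, for 4 h (RGA-GR Dex), and the last had no transgene and received Dex for 4 h (nontransgenic Dex). Each group had 3 arrays, which the design text calls biologically independent. Nontransgenic plants under mock treatment were not analysed here. By the labels, RGA-GR mock therefore differed from nontransgenic Dex in both the transgene and Dex, and RGA-GR Dex differed from it in the transgene. Array features that also differed between these groups are given below. The promoter of the transgene, its place of insertion and the number of lines behind the label RGA-GR are not given in the sources used here. A difference shared by RGA-GR mock and RGA-GR Dex can therefore not be told apart from any other lasting difference between these plant stocks.

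RGA is a DELLA protein, a nuclear repressor of growth responses that the hormone gibberellin marks for destruction. In ga1-3 plants gibberellin synthesis is blocked, so DELLA proteins accumulate and stamens and petals arrest, and loss of RGA and RGL2 restores much of the development of the flower. The fusion to the glucocorticoid receptor (GR) keeps RGA out of the nucleus until Dex binds the receptor part, so a mock-treated RGA-GR plant holds a fusion protein that is meant to be inactive.

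Deposited values are linear ratios with no unit. In 35 of the 45 members (77.8%) the median over the 9 arrays is exactly 1, as in 87.2% of all probe sets kept. What the other 10 were divided by is unknown, and AT1G71680, AT4G21630, AT4G17480, AT5G05250, AT3G21970, AT1G19500 and AT1G07850 are among them. A ratio compares arrays for 1 probe set and carries no level, so neither the abundance of a transcript nor the presence of marker genes of the inflorescence can be read from it. Since the 3 nontransgenic arrays are the highest for every member, a ratio of 1 in the 35 members is by construction the second highest of the 6 RGA-GR values. In whole-tissue RNA, fewer cells of a type and less RNA per cell cannot be told apart.

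Several features of the arrays ran with the groups. The median ratio of the added control RNAs was 0.0753 to 0.107 on the arrays of RGA-GR mock and RGA-GR Dex numbered 1 and 2, 1 and 1.29 on those numbered 3, and 1.84 to 2.39 on the nontransgenic arrays. The 25S ribosomal RNA control had ratios of 0.495 to 26.2 on the RGA-GR arrays and 0.0574 to 0.0838 on the nontransgenic arrays. Among all probe sets kept, 1826 (10.6%) were called lower and 3260 (18.9%) higher in the RGA-GR line than in nontransgenic Dex. Calls were made at an adjusted p under 0.05 (limma, mock and Dex averaged). The fit counted all RGA-GR arrays as independent, same-numbered mock and Dex arrays included. The part of the array differences in the members' values was not tested.

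**Figure D1:**
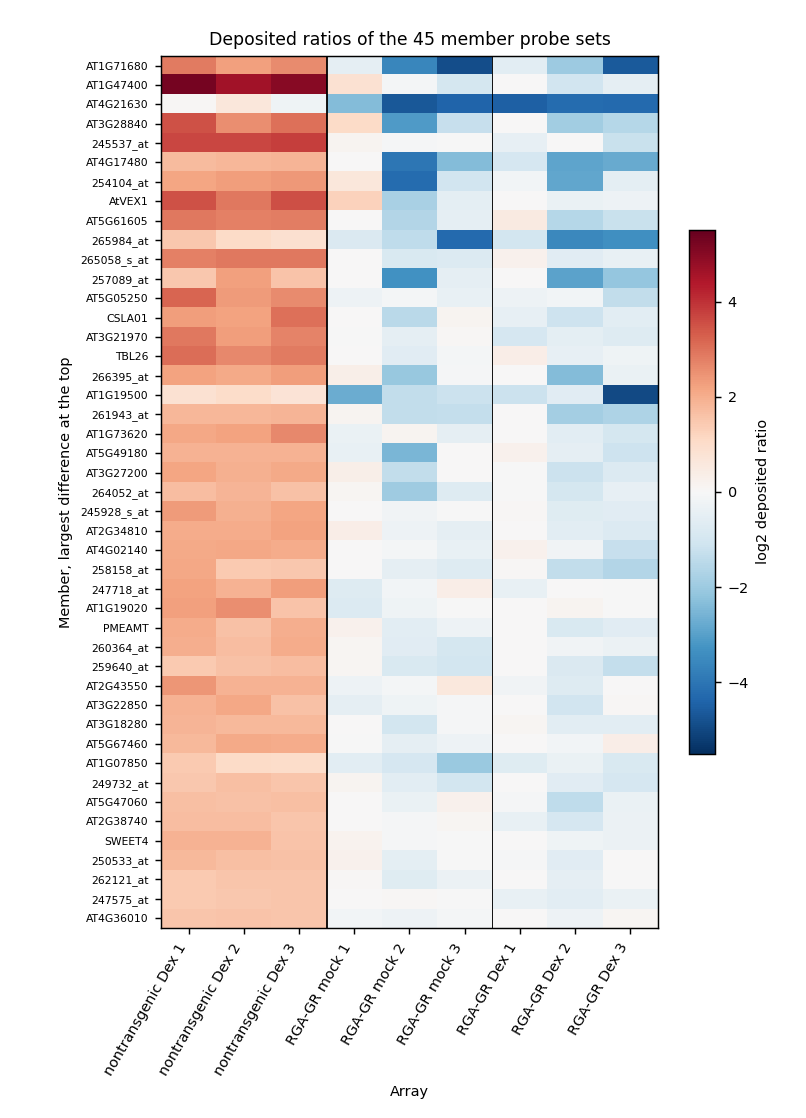
Heat map of the 45 members (rows, largest difference at the top, probe set numbers where no gene is named) on the 9 arrays (columns), coloured by the log2 of the deposited ratio. Every RGA-GR column lies below the nontransgenic columns within a row, as the rule requires, and the RGA-GR columns numbered 1 hold few of the dark blue cells.

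The median member was 5.28-fold lower in the RGA-GR line than in nontransgenic Dex, and the members ranged from 3.14-fold to 38.8-fold. On the log2 scale the median difference of the line was -2.40, against 0.10 over all probe sets kept. The members were chosen on this same contrast, so the counts of members called below follow from the rule and are no test of them. Under the limma fit 41 of the 45 members were called lower, beside 10.6% of all probe sets. The exceptions were AT1G47400, AtVEX1, TBL26 and 1 probe set without a gene name. Their mean log ratios were among the highest in the table, where the fit's variance trend gave very large standard errors, and all 45 were called when the trend was left out (beside 9.44%). All 6 RGA-GR arrays were below all 3 nontransgenic arrays in 2084 probe sets (12.1%) and above them in 3231 (18.7%), so groups that do not overlap were common on these arrays. The same fold and the same limit in the opposite direction were met by 57 probe sets (0.33%).

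**Figure D2:**
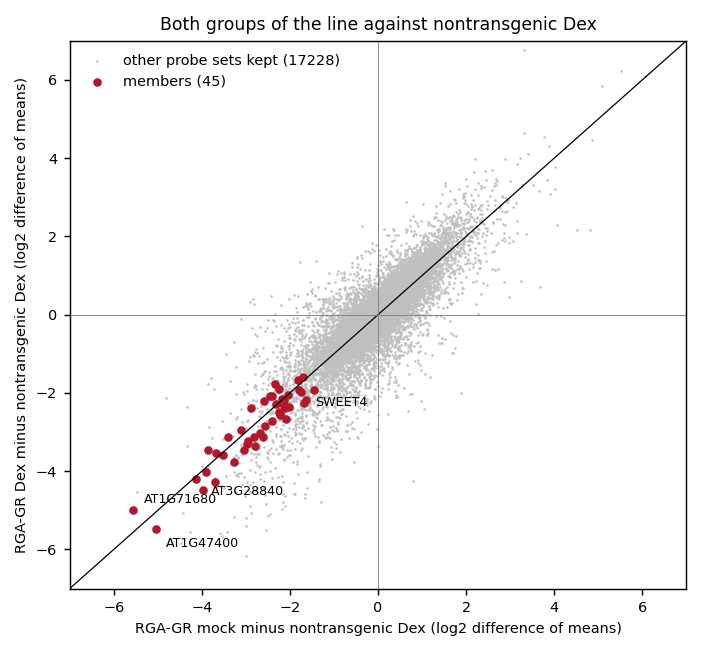
Each point is a probe set, with the log2 difference of means of RGA-GR mock minus nontransgenic Dex on the horizontal axis and that of RGA-GR Dex minus nontransgenic Dex on the vertical axis, and the line marks equal differences. The 45 members (red) lie near that line at the low end, as the limit of 0.6 requires, and both axes share the nontransgenic arrays.

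The named members with a gene symbol included a pair of sugar transporters. AtVEX1 is listed in the gene table also as SWEET5 and as vegetative cell expressed 1, after a cell of the pollen grain, and SWEET4 belongs to the same family of carriers, which move sugars across membranes down their gradient. AtVEX1 had ratios of 2.38, 0.290 and 0.682 in RGA-GR mock, 1, 0.769 and 0.834 in RGA-GR Dex, and 11.3, 7.49 and 11.6 in nontransgenic Dex. The first mock array was the highest of the line, the second was the lowest, and all 6 stayed below the nontransgenic arrays. The difference of the line was -3.60 on the log2 scale (12.1-fold, and 6.06-fold after quantile normalization), with means of -0.36 ± 1.53 in mock, -0.21 ± 0.19 in Dex and 3.31 ± 0.35 in nontransgenic Dex (SD, n = 3 arrays each). SWEET4 had ratios of 1.15, 0.956 and 0.991 in mock, 1, 0.851 and 0.796 in Dex, and 3.74, 3.76 and 2.94 in nontransgenic Dex. The 6 RGA-GR values of SWEET4 stayed close together, and its difference of -1.86 (3.64-fold) was among the smaller ones in the set.

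CSLA01 and TBL26 belong to families of cell wall enzymes. CSLA proteins are glycosyltransferases that build the backbone of mannan polysaccharides, and the TBL family holds enzymes that add acetyl groups to wall polysaccharides. CSLA01 had ratios of 1, 0.361 and 1.11 in mock, 0.737, 0.456 and 0.665 in Dex, and 4.94, 4.67 and 8.10 in nontransgenic Dex. Nontransgenic array 3 was higher than the others, and the arrays numbered 2 were the lowest of each RGA-GR group. The log2 means were -0.44 ± 0.90 in mock, -0.72 ± 0.36 in Dex and 2.52 ± 0.44 in nontransgenic Dex (SD, n = 3), a difference of 8.54-fold (5.22-fold after quantile normalization). TBL26 had ratios of 1, 0.640 and 0.919 in mock, 1.28, 0.742 and 0.854 in Dex, and 8.33, 6.28 and 7.26 in nontransgenic Dex. Mock and Dex values of TBL26 overlapped throughout, and the line was 8.19-fold lower than nontransgenic Dex (4.59-fold after quantile normalization).

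PMEAMT is a methyltransferase of the pathway to phosphocholine, from which the membrane lipid phosphatidylcholine is made. Its ratios were 1.18, 0.663 and 0.814 in mock, 1, 0.564 and 0.643 in Dex, and 4.08, 3.09 and 4.01 in nontransgenic Dex. The order of the arrays numbered 1, 2 and 3 was alike in mock and Dex, with number 1 highest and number 2 lowest. The log2 means of -0.22 ± 0.42 in mock and -0.49 ± 0.43 in Dex lay below 1.89 ± 0.22 in nontransgenic Dex (SD, n = 3), which makes a difference of 4.72-fold.

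**Figure D3:**
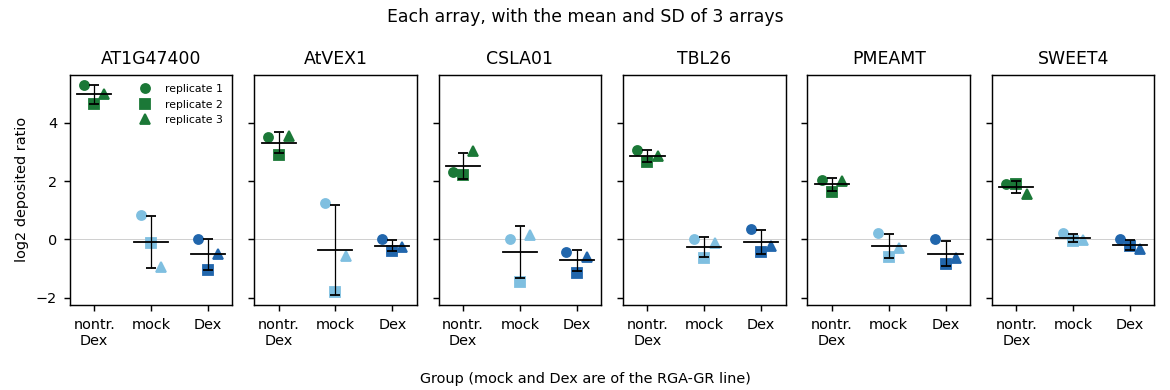
Log2 deposited ratio of AT1G47400, AtVEX1, CSLA01, TBL26, PMEAMT and SWEET4 on each array (points, shaped by array number) in nontransgenic Dex and in RGA-GR mock and Dex, with the mean and SD of 3 arrays. The nontransgenic points lie above all RGA-GR points in each panel, and the mock arrays of AtVEX1 are the most widely spread.

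The largest differences belonged to genes that the gene table lists by locus number alone, with neither symbol nor function. The gene table does so for 23 of the 28 named members (82.1%, against 86.0% of all named probe sets kept). AT1G71680 had ratios of 0.720, 0.0823 and 0.0344 in mock, 0.663, 0.250 and 0.0404 in Dex, and 7.31, 4.84 and 6.08 in nontransgenic Dex. Within the line its arrays numbered 1 were the highest and those numbered 2 and 3 lower, in mock and Dex alike. Its log2 means were -2.98 ± 2.26 in mock, -2.41 ± 2.05 in Dex and 2.58 ± 0.30 in nontransgenic Dex (SD, n = 3), a difference of 38.8-fold with a wide spread on the RGA-GR side. The fold of AT1G71680 was 59.9 without RGA-GR mock 1, 82.0 without both arrays numbered 1, 19.0 without both numbered 3 and 161 on the 5 arrays with control RNA signal. It was 22.9 after quantile normalization and 21.1 with an offset before the log2. AT1G47400 had ratios of 1.77, 0.916 and 0.514 in mock, 1, 0.485 and 0.712 in Dex, and 38.8, 24.8 and 31.8 in nontransgenic Dex. Here the 6 RGA-GR values stayed within 3.65-fold of each other, and the lowest nontransgenic array was 13.98 times the highest of them. The log2 means were -0.09 ± 0.89 in mock, -0.51 ± 0.52 in Dex and 4.97 ± 0.32 in nontransgenic Dex (SD, n = 3). The fold of 38.45 became 15.4 after quantile normalization.

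AT4G21630 had ratios of 0.191, 0.0397 and 0.0477 in mock, 0.0446, 0.0539 and 0.0513 in Dex, and 1.05, 1.54 and 0.856 in nontransgenic Dex. Apart from the first mock array its RGA-GR values were nearly alike, and the line was 18.7-fold lower (7.83-fold with an offset before the log2). AT3G28840 had ratios of 2.09, 0.115 and 0.420 in mock, 1, 0.267 and 0.335 in Dex, and 11.4, 5.90 and 8.11 in nontransgenic Dex. Both arrays numbered 1 stood well above the other RGA-GR arrays, and the log2 difference from nontransgenic Dex was -2.496 for the arrays numbered 1, -5.54 for those numbered 2 and -4.44 for those numbered 3. The fold of AT3G28840 was 17.9 over all arrays, 31.8 without both arrays numbered 1, 11.1 without both numbered 2 and 9.02 after quantile normalization. AT4G17480 had ratios of 1.02, 0.0645 and 0.192 in mock, 0.530, 0.132 and 0.147 in Dex, and 3.32, 3.54 and 3.70 in nontransgenic Dex. It shared the order of AT3G28840 among the RGA-GR arrays in mock, its nontransgenic values were nearly equal, and the line was 15.6-fold lower (28.2-fold without both arrays numbered 1 and 10.0-fold without both numbered 2).

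AT5G61605 had ratios of 1, 0.324 and 0.705 in mock, 1.42, 0.334 and 0.423 in Dex, and 7.47, 6.77 and 6.95 in nontransgenic Dex. The arrays numbered 1 were again the highest of each RGA-GR group, and the line was 11.8-fold lower (6.41-fold after quantile normalization). AT5G05250 had ratios of 0.821, 0.935 and 0.755 in mock, 0.823, 0.894 and 0.392 in Dex, and 9.25, 5.10 and 6.03 in nontransgenic Dex. Its RGA-GR values were close together except for a lower Dex array 3, and the line was 8.86-fold lower (5.22-fold after quantile normalization). AT3G21970 had ratios of 0.985, 0.713 and 1.05 in mock, 0.535, 0.693 and 0.609 in Dex, and 7.51, 4.86 and 6.61 in nontransgenic Dex. All 3 Dex arrays of AT3G21970 lay below all 3 mock arrays, by a mean of -0.57 on the log2 scale, just inside the limit of the rule. The line was 8.39-fold lower in AT3G21970, and 5.06-fold after quantile normalization.

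AT1G19500 had ratios of 0.153, 0.390 and 0.441 in mock, 0.439, 0.643 and 0.0320 in Dex, and 1.80, 2.04 and 1.68 in nontransgenic Dex. Its lowest value was Dex array 3, and its RGA-GR values spanned 20.1-fold. The line was 7.37-fold lower, 4.61-fold without RGA-GR Dex 3 and 15.4-fold on the 5 arrays with control RNA signal. AT1G73620 had ratios of 0.776, 1.10 and 0.718 in mock, 1, 0.665 and 0.515 in Dex, and 4.38, 4.60 and 6.19 in nontransgenic Dex. The line was 6.49-fold lower (4.17-fold after quantile normalization), with mock and Dex values interleaved. AT5G49180 had ratios of 0.749, 0.176 and 1 in mock, 1.16, 0.715 and 0.450 in Dex, and 3.81, 3.77 and 3.78 in nontransgenic Dex. The nontransgenic values of AT5G49180 were almost identical, its second mock array stood apart at the bottom, and the line was 6.25-fold lower. AT3G27200 had ratios of 1.24, 0.397 and 1 in mock, 0.979, 0.439 and 0.597 in Dex, and 4.46, 3.90 and 4.20 in nontransgenic Dex. The arrays numbered 2 were its lowest in mock and in Dex.

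The remaining 11 named members, all listed by locus number, had log2 differences between -2.38 and -1.65. They are AT2G34810, AT4G02140, AT1G19020, AT2G43550, AT3G22850, AT3G18280, AT5G67460, AT1G07850, AT5G47060, AT2G38740 and AT4G36010. AT4G36010 had the smallest difference of the set and the narrowest spread within the line, with ratios of 0.907, 0.824 and 0.929 in mock, 1, 0.833 and 1.06 in Dex, and 2.88, 2.98 and 2.84 in nontransgenic Dex. The 17 probe sets with no gene name had a median log2 difference of -2.40, against -2.60 for the 28 named ones. The largest difference among them, 15.9-fold, belonged to a probe set with ratios of 1.11, 0.964 and 0.996 in mock, 0.736, 1 and 0.429 in Dex, and 12.9, 12.8 and 14.1 in nontransgenic Dex. Another of the 17 had the widest spread within the line, 29.1-fold from its lowest to its highest RGA-GR array.

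Near the fold limit, AT2G43550, AT5G47060 and SWEET4 were just inside, at 2.54, 2.54 and 2.55 times the highest RGA-GR value. AT1G04670 at 2.498 times, IDH-III at 2.46 times and AT2G41800 at 2.41 times were just outside while meeting the other conditions. Near the limit on the Dex to mock difference, AT1G71680 (0.57), AT5G47060 (-0.57) and AT3G21970 (-0.57) were inside. AT5G67550 (0.63), AT1G73040 (-0.64) and AT3G57010 (-0.67) met the fold and were outside this limit. Without that limit 86 probe sets (0.498%) met the fold, and of the 40 with mock and Dex at least 0.6 apart, Dex was the lower in 36 and the higher in 4.

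The question the study's design asked first was which transcripts differed between Dex-treated and mock-treated RGA-GR plants. For the members this difference is bounded by the rule, and it ranged from -0.59 to 0.57 on the log2 scale. Its median was -0.23, against 0.08 over all probe sets kept. The Dex mean was the lower in 30 of 45 members (66.7%, against 40.9%). Among the 2039 other probe sets whose RGA-GR arrays were all below the nontransgenic ones this share was 60.9%. Dex was below mock in all 3 same-numbered pairs in 9 members (against 13.9% of all and 24.9% of those 2039) and above it in all 3 in 3 members (against 25.1% and 10.3%). No probe set of the 17273 was called between Dex and mock by limma (0%), the smallest adjusted p being 0.143, while 1525 probe sets, 2 members among them, had an unadjusted p under 0.05. With same-numbered mock and Dex arrays treated as pairs, 13 probe sets were called and 0 of them were members. Against nontransgenic Dex the members' median log2 difference was -2.46 for RGA-GR mock and -2.56 for RGA-GR Dex, values that share the nontransgenic arrays.

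The spread within the groups varied between members. The highest nontransgenic array was at most 1.98 times the lowest in each of the 45 members, with a median of 1.23. That median was 1.34 over all probe sets kept and 1.25 over the 2039 others that were below in the whole line. The rule sets a limit on the lowest nontransgenic value, so it partly selects for even nontransgenic values. Across the 6 RGA-GR arrays the same ratio ran from 1.29 to 29.1 with a median of 2.59. That median was 1.94 over all probe sets kept and 2.04 over the same 2039 others. A range over 6 arrays is wider by construction than one over 3. It was under 2 in 9 members, from 2 to 4 in 23 and above that in 13.

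Within the line, members were often highest on the arrays numbered 1. The median member ratio was 1 on both RGA-GR arrays numbered 1, 0.647 and 0.643 on the mock and Dex arrays numbered 2, and 0.758 and 0.643 on those numbered 3. On the nontransgenic arrays it was 4.08, 3.81 and 3.78. The mean of the arrays numbered 1 was the highest of the 3 numbers in 32 members (71.1%). The same held for 30.1% of all probe sets kept and 53.4% of the 2039 others. Both arrays numbered 1 exceeded the other 4 RGA-GR arrays in 25 members (55.6%, against 10.1% and 24.4%). This held for 12 of the 28 named members and for 13 of the 17 without a gene name.

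The difference from nontransgenic Dex had a median of -2.02 on the log2 scale for the arrays numbered 1, -2.60 for number 2 and -2.71 for number 3. The lowest nontransgenic array was 2.51 to 13.98 times the higher array of number 1, 2.58 to 32.7 times that of number 2 and 2.54 to 120 times that of number 3, limits that the rule sets at 2.5. The arrays numbered 3 are the RGA-GR arrays that carry control RNA signal as the nontransgenic arrays do. Leaving out both arrays numbered 1 brought 123 probe sets under the rule, of which 33 were among the 45, and leaving out the first mock array alone brought 99, of which 35 were.

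**Figure D4:**
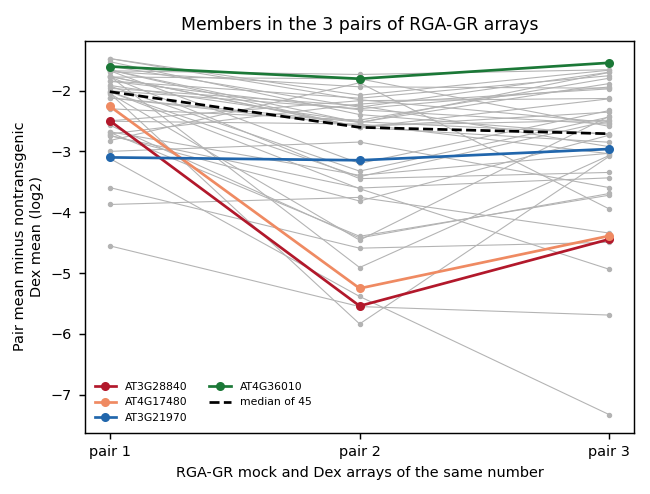
Log2 difference from the nontransgenic Dex mean for each member (grey lines, with 4 genes in colour) in each pair of same-numbered RGA-GR arrays (mock and Dex), and the median of the 45 (dashed). The medians are -2.02, -2.60 and -2.71, and AT3G28840 and AT4G17480 are much lower in pairs 2 and 3 than in pair 1.

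Late pollen and sperm genes, a list of transcripts of mature pollen, were also highest on the RGA-GR arrays numbered 1. Of its measured genes 0 are members, but members without a gene name could not be matched to the list. The list does not hold AtVEX1, and members without a symbol could not be assigned to a cell type. Its median log2 ratio was 0.19, -0.68 and -0.71 on the mock arrays, -0.14, -3.25 and -1.28 on the Dex arrays, and 1.14, 0.59 and 0.85 on the nontransgenic arrays. The summed ratio of the list was 7.55 to 15.5 in mock, 3.0 to 9.80 in Dex and 29.4 to 39.9 in nontransgenic Dex. Genes with high ratios weigh most in this sum. Gene by gene, all RGA-GR arrays were below all nontransgenic arrays in 8 of 11, beside 12.1% of all probe sets. ACT12, AGL65 and AGL66 overlapped. Of 11 measured genes 10 had a lower mean in the line, 5 were called lower and 0 higher (beside 10.6% and 18.9% of all probe sets), and the median was -1.96. The arrays numbered 1 were the highest in 8 of the 11 (72.7%). Unlike the members, which the rule holds to a small Dex to mock difference, 8 of these 11 genes were lower with Dex in all 3 pairs. AT59, a pectate lyase gene of pollen, was at -2.93 and ACT12, an actin gene of pollen, at -1.31, and neither was called. The part of pollen transcripts in the members' values was not tested.

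Relatives of the members with symbols were counted without the members themselves. Of 10 other measured SWEET genes 7 had a lower mean in the line, 3 were called lower and 3 higher (1 and 2 after quantile normalization), beside 10.6% and 18.9% of all probe sets, and the median log2 difference was -0.32. SWEET13, a sucrose carrier, had ratios of 0.417, 0.0613 and 1.45 in mock, 0.350, 0.0784 and 0.842 in Dex, and 2.71, 2.59 and 3.37 in nontransgenic Dex. It fell by 3.22 on the log2 scale (limma, adjusted p = 0.0301), and its lowest nontransgenic value was 1.79 times its highest RGA-GR value, under the fold of the rule. That p counted the RGA-GR arrays as independent, although same-numbered mock and Dex ratios of SWEET13 were alike and differed widely between numbers. SWEET17, a fructose carrier of the vacuole membrane, rose by 1.60 and SWEET10 by 1.26.

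Of 14 other measured TBL genes, TBL38 (-2.01) and TBL41 (-1.11) were called lower and TBL45 (0.94) and TBL28 (1.13) higher, 14.3% each way, beside 10.6% and 18.9% of all probe sets. Their median was 0.16 as deposited, 0.06 after quantile normalization and -0.01 with array medians subtracted. CSLA03, the other measured CSLA gene, had ratios of 1.36, 1.05 and 1 in mock, 1.19, 1.34 and 0.924 in Dex, and 0.652, 0.364 and 0.305 in nontransgenic Dex. It rose by 1.44, opposite to CSLA01, under each scaling tried.

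None of the 28 named members is in any of the 11 gene lists examined, which hold few measured genes each. The 17 members without a gene name could not be matched to a list, and a list gene on such a probe set does not count as measured. The lists need not be complete, and most named members have neither symbol nor function in the gene table. A member such as AT1G47400 could therefore still share a process with a list. Of 2 iron deficiency genes, BHLH101, a transcription factor of the iron deficiency response, fell by 3.85. Its adjusted p of 0.00412 (limma) counted the RGA-GR arrays as independent. Its ratios were 0.0824, 0.332 and 0.595 in mock, 0.538, 0.219 and 1.09 in Dex, and 7.18, 3.20 and 5.97 in nontransgenic Dex, so it met the fold of the rule (2.92) but not the limit between Dex and mock (0.99). PYE, a regulator of the same response, was at -0.22 and was not called. Both measured glucosinolate genes were called lower (beside 10.6% of all probe sets), BCAT4 of methionine chain elongation at -2.82 and AOP3 of side chain modification at -1.17.

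DFR of anthocyanin synthesis fell by 3.24 and was the 1 gene called of 2 flavonoid genes, while 2 were called with array medians subtracted. LTI30, a dehydrin gene, was the 1 called lower of 3 cold and abscisic acid genes, and JMT, which makes methyl jasmonate, fell by 1.38 as the 1 measured jasmonate gene. Of 6 tapetum and pollen coat genes, SHT fell by 1.97, AT5G52160 rose by 1.76 and 4 were not called. Both photosynthesis genes, RCA and LHCB4.1, were called higher (beside 18.9% of all probe sets), with a median of 0.985. Of 6 gibberellin perception and signalling genes 3 were called higher (GID1A, GID1C and SLY2) and 0 lower, and 2 were called higher under either other scaling. None of the 2 salicylic acid and camalexin genes or of the 2 rapid stress genes was called. Over all probe sets 10.6% were called lower and 18.9% higher. With so few genes per list, none of these counts is a result about a pathway.

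The named members were spread over the genome. Of the 28 named genes, all protein coding in the TAIR10.1 gene table, 7 lie on chromosome 1, 3 on chromosome 2, and 6 each on chromosomes 3, 4 and 5. The corresponding shares of all measured genes were 26.5%, 14.5%, 20.4%, 14.4% and 23.5%. The median gene length was 1905 bases, from 347 to 4109, against 2270.0 bases over the 9530 measured genes. No named member gene had another probe set that the filter kept under its name.

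No named member was the nearest protein-coding neighbour of another named member, and members without a gene name could not be placed. A neighbour counts as measured here only where a kept probe set names that gene alone. Of the named members' 56 nearest neighbours on either side, 26 were measured. Of these 9 were called lower (34.6%, against 10.3% of measured genes) and 2 higher (7.69%, against 17.2%), and their median log2 difference was -0.21, against 0.08. The lowest was AT3G28830, next to AT3G28840, with ratios of 2.29, 0.349 and 0.260 in mock, 1, 0.109 and 0.0544 in Dex, and 4.41, 4.05 and 3.65 in nontransgenic Dex. It fell by 3.62 and shared with AT3G28840 the high values on the arrays numbered 1. AT3G21960, next to AT3G21970, fell by 2.11, with ratios of 1, 0.629 and 0.544 in mock, 1.05, 0.272 and 0.166 in Dex, and 2.497, 2.002 and 2.042 in nontransgenic Dex. The others called lower were AT1G47410, AT1G71530, AT1G73630, AT4G17470, AT5G62840, AT2G38730 and AT3G22845, between -1.69 and -0.73. AT4G01090, next to TBL26, rose by 1.09 and AT2G43540, next to AT2G43550, by 1.13. Whether probe sets of neighbouring genes share sequence was not tested.

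**Figure D5:**
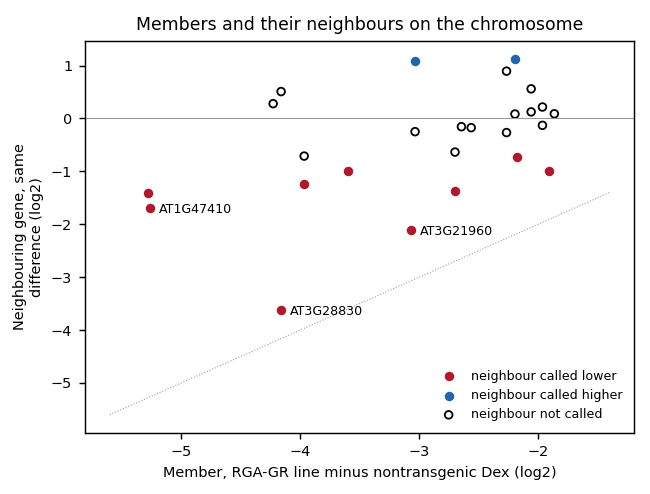
Log2 difference of the RGA-GR line from nontransgenic Dex for each named member (horizontal axis) and for its measured nearest protein-coding neighbours (vertical axis), coloured by whether the neighbour was called lower or higher, with a dotted line at equal differences. AT3G28830 and AT3G21960 are the lowest of the measured neighbours.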

How the data were processed

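Biotin-labelled total RNA was measured on Affymetrix arrays, per the labels, and the submitters' processing notes name GCOS. The authors deposited linear ratios, which the values show to be taken mostly to each probe set's own median; scaling and the treatment of dim probe sets are not given in the sources used here. The log2 of the ratio was used without an offset, which makes the folds of very small ratios larger, as given above for AT1G71680 and AT4G21630. The array medians spanned 0.218 on the log2 scale, and the main fit used no further scaling. Of 22746 probe sets besides 64 controls, 17273 passed a filter (3 or more of 9 arrays above that array's percentile 40). The fit was limma 3.58.1 in R 4.3.3 (3 groups, eBayes with trend, 6 residual degrees of freedom, two-sided, Benjamini-Hochberg over 17273 probe sets, threshold 0.05). A run on simulated data used independent noise, without pairs or array differences, and set no limit on false calls. It therefore says little about the fit on these arrays. The p-values of the fit, and the SDs given, measure the spread between these arrays, whose number limits the precision. The line is the mean of RGA-GR mock and RGA-GR Dex, and folds are 2 to the power of differences of mean log2 ratios unless said otherwise.

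The members, lists and families were chosen with earlier results of these data known. Named were the 15 members with 1 gene and the largest difference, those with a symbol, those next to another member or in a list, and the 3 on either side of each limit. Other members, neighbours, relatives and unnamed probe sets named in the text were chosen after their values were seen. The moderated standard errors foreseen for members are not printed, because the variance trend is unstable at high mean ratios, and group SDs stand in their place. Gene names come from a probe table and the TAIR10.1 gene table. Gene descriptions, promoter motifs and sequences were not used here, and RGA, RGL2 and GA1 were not analysed here.

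Deviations from the group means correlated between same-numbered mock and Dex arrays (r = 0.332, 0.118 and 0.325 across probe sets), so these were taken as pairs from the data, while nontransgenic numbers did not pair (r from -0.0387 to 0.0355). Alternatives covered scaling, an offset, filters, fold, limit, trend, replicate blocks and arrays left out; leaving out pairs, a block for the control RNA signal and the 5 arrays with that signal were added after seeing the data. Python 3.11.15 with matplotlib 3.10.9 drew the figures.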

Additional observations from a re-analysis of the deposited data

How the results depend on the processing

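The membership depended on several choices. Against 45 probe sets, the rule held 10 after quantile normalization (10 of them among the 45), 106 at a fold of 2, 22 at a fold of 3, 19 at a Dex to mock limit of 0.3, and 43 to 99 with single arrays left out, the highest without RGA-GR mock 1 and 75 without nontransgenic Dex 3. Of the pairs formed by same-numbered mock and Dex arrays, it held 123 without pair 1 and 75 without pair 3. Array medians subtracted gave 66, of which 40 were among the 45. The cause was not tested.

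For the RGA-GR line against nontransgenic Dex, 5086 probe sets were called, 64.1% of them higher, a share of 44.3% with array medians subtracted (2527 lower, 2010 higher, the median of all probe sets moving from 0.10 to -0.07) and 54.6% after quantile normalization. The count was 3133 to 5353 with single arrays left out, with 3133, 3165 and 3341 without nontransgenic Dex 1, 2 and 3, and 2575 without pair 2. It was 3551 with control RNA signal as a block and 4182 on the 5 arrays with that signal, of which 49.2% were higher. With the replicate block it was 5597 over all 9 arrays and 4316 within the transgenic line. The block leaves the members' differences as they are, by the balance of the design.

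For Dex against mock, 0 were called, 1 without trend, 13 with the replicate block within the line, 0 with the block over all arrays, 0 to 15 with single arrays left out (15 without RGA-GR Dex 1), 2 without pair 1 and 50 on the 5 arrays with control RNA signal.

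The differences of the 28 named members gave 532 values under 19 settings. Of these 29 moved by more than 1 SD between replicates, and the values ranged from -7.33 to -1.33. The rule itself fixes their sign when arrays are left out, the replicate blocks return the same estimates, and the block for control RNA signal gives those of the 5 arrays, so the tally says little about stability. After quantile normalization 19 of 28 moved by more, to a median of -2.04 from -2.60. Ratios without signal levels leave the distance from background unknown.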
